A study of Mus musculus with 12 samples.

Results

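The 39 genes described here carry pyruvate into the mitochondrion, oxidise it in the tricarboxylic acid (TCA) cycle and move reducing equivalents from the cytosol to the matrix in the malate-aspartate shuttle. They were taken by gene symbol, and all 39 were found among the 56748 entries of the scaled count table and the 55372 rows of the TPM table. In order of role they are the 2 subunits of the mitochondrial pyruvate carrier, 4 subunits of the pyruvate dehydrogenase complex, the 4 kinases that switch this complex off, pyruvate carboxylase, 14 cycle enzyme genes, 7 shuttle genes, glutamate dehydrogenase, 3 malic enzymes, and the NADP-dependent isocitrate dehydrogenases with cytosolic aconitase.

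Pyruvate made by glycolysis can be reduced to lactate in the cytosol or imported through the carrier and oxidised to acetyl-CoA, which citrate synthase feeds into the cycle. The retina is known for making much lactate even in the presence of oxygen, and rods keep a dense pool of mitochondria in their inner segments. Several steps of the pathway are encoded by alternative genes that differ in cofactor, nucleotide or compartment, so that cell types can run the same step with different enzymes.

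The mice were 2 months old and either lacked Abca4, the lipid transporter of photoreceptor outer segments, or were littermate controls (Abca4+/+). All animals, controls included, carried the RiboTag allele and i75-Rod-Cre, in which the rhodopsin promoter switches on a tagged ribosomal protein in rods. Messages on the tagged ribosomes of the retinal lysate were pulled down (translating ribosome affinity purification, TRAP), here called rod TRAP, and RNA of the lysate before the pull-down is called retina. There were 3 libraries in each of the 4 groups, control and Abca4-/- rod TRAP and control and Abca4-/- retina. Rod TRAP reports messages on rod ribosomes and retina reports all polyadenylated RNA of the tissue, so that a difference between them can come from cell type, from ribosome loading or from amount of RNA, and fewer cells of a type and less RNA per cell cannot be told apart. Every rod TRAP library was made from 10 ng of RNA and every retina library from 5 ng. Input and pull-down therefore cannot be told apart from fraction either.

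In units of 1e+06, the libraries held 14.8 to 23.2 reads, as recovered from the spacing of their low values. The summed TPM of 12 rod markers was 210830 to 236780 in rod TRAP and 92089 to 123730 in retina, and that of 8 Müller glia markers was 138.8 to 186.1 in rod TRAP and 3270.2 to 6338.8 in retina, so the fractions followed their labels. Among the retina libraries Abca4-/- replicate 1 had the lowest sums for Müller glia (3270.2), bipolar (582.8), amacrine (637.8) and ganglion cell markers (659.4 TPM), against at least 4074.7, 827.9, 949.5 and 959.8 TPM in the other 5. Abca4 checked the genotype. Its scaled counts were 61017, 53193 and 53533 (control) against 195, 365 and 13156 (Abca4-/-) for rod TRAP, and 38929, 37619 and 38090 against 153, 366 and 8124 for retina. The libraries labelled Abca4-/- replicate 3 thus held 23.5% of the control mean in rod TRAP and 21.3% in retina, where the other 4 held 0.349% to 0.958%, and results that use them are also given without them where they change.

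In control mice, rod TRAP and whole retina differed in the mix of isoform messages at several steps of the pathway. Sucla2, Me1 and Slc25a12 led their families in both fractions. The leading kinase message was Pdk2 in retina and Pdk3 in rod TRAP. Rod TRAP held more Dld, Sucla2, Me2, Idh1, Dlat, Me1, Sdha, Pdk3 and Slc25a12 than retina, and less Idh2, Pcx, Mpc1, Pdk2 and Sdhb. Suclg2, Me3 and Slc25a13 were near 0 in rod TRAP. Of the 38 members tested, 22 were higher in rod TRAP, 8 were lower and 8 did not pass (limma on log2(CPM + 0.5), adjusted p under 0.05), and Pdk4 was too low to be tested. Of the 8 lower, Me3 and Slc25a13 stayed under 10 scaled counts in every control rod TRAP library and met the filter through retina alone. Suclg2 had 0, 4 and 12 scaled counts there and would not have met the filter without retina either. The calls of these genes are therefore no support. Of all 16286 genes tested, 75.3% were called, 36% higher and 39.3% lower, so a call by itself sets no member apart. The median log2 fold change was 0.39 over the 38 members and −0.05 over all genes, and 30 of the 38 members lay above the median of all genes. On the scale of the fit, the fractions did not overlap for 31 of the 38, against 79.5% of all genes.

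How the libraries are scaled to each other decides the middle of this range. With the authors' totals in place of the trimmed mean of M, the median of all genes fell to −0.62. The member calls became 9 higher and 19 lower, beside 3415 higher and 9549 lower of all 16286 genes. Under that scaling the 10 members Pdk1, Cs, Dlst, Suclg1, Fh1, Mdh1, Mdh2, Got1, Got2 and Aco1 changed sign, Pdha1, Pdhb and Idh3a kept theirs without a call, and the members' median stayed 0.39 above that of all genes. The 9 higher members named above, and Mpc1, Pdk2, Pcx, Sdhb and Idh2 among the lower, kept direction and call under all 3 other scalings and with each library left out in turn. Leaving out control retina replicate 1 or 2 left 12 higher members in each case, in fits of fewer genes, and the other 4 libraries left 18 to 20. Over all genes, 4767 of 13446, 4678 of 13451 and 4967 of 13471 were higher without control retina replicate 1, 2 and 3. Without control rod TRAP replicate 1, 2 and 3 these were 5430 of 16152, 5376 of 16143 and 5394 of 16167. The excess of the members' median over that of all genes was 0.44 with all libraries, but 0.17, 0.2 and 0.19 without control retina replicate 1, 2 or 3, where 22, 23 and 25 of 36 members lay above the median of all genes. Values below are log2 fold changes ± SE of rod TRAP over retina in control from the limma fit, with its adjusted p, unless said otherwise, and TPM is the authors' value per length.

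**Figure D1:**
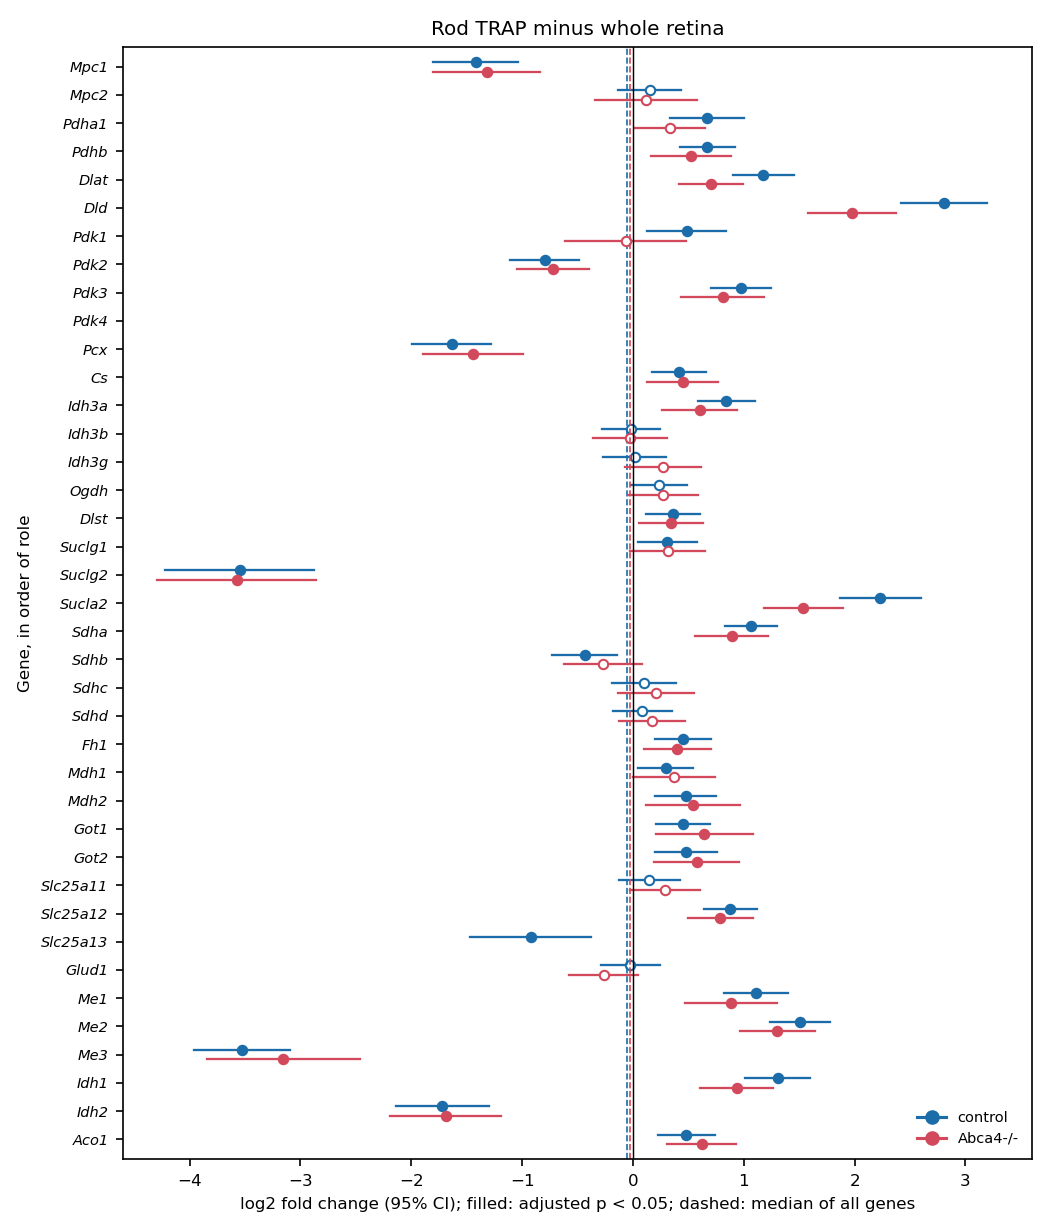
Log2 fold change of rod TRAP over retina for each tested member in control and in Abca4-/-, with members in order of role along the vertical axis (points; filled where adjusted p was under 0.05; lines are 95% confidence intervals from limma and dashed lines the medians of all genes). Dld (2.80) and Sucla2 (2.23) stand farthest to the right in control. The points of Suclg2 and Me3, farthest to the left, and of Slc25a13 depend on the constant added, since these genes were near 0 in rods.

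The pyruvate carrier is a heterodimer of Mpc1 and Mpc2, and its 2 messages behaved differently. Mpc1 had 35.7, 42.3 and 46.4 TPM in control rod TRAP and 51.0, 37.1 and 33.3 in Abca4-/- rod TRAP. The retina values were 129.4, 143.7 and 143.7 in control and 114.2, 133.7 and 139.6 in Abca4-/-. The highest rod TRAP library lay below the lowest retina library in both genotypes, and the difference in control was −1.42 ± 0.18, adjusted p = 1e-05, 2.67-fold lower in rods. Rod TRAP of control mice held 117.2, 110.6 and 102.2 TPM of Mpc2, and that of Abca4-/- mice 121.0, 122.5 and 115.0. Whole retina held 114.7, 136.6 and 135.3 in control and 125.1, 121.3 and 99.8 in Abca4-/-. Here the fractions overlapped (0.15 ± 0.13, adjusted p = 0.309), and the sign turned to −0.47 with the authors' totals. In TPM, Mpc1 made up 26.3% ± 3.7 in rod TRAP and 52.4% ± 3.4 in retina (SD, n = 6 each) of the pair, so that Mpc2 exceeded Mpc1 in every rod TRAP library, while the pair was near parity in retina.

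All 4 subunit genes of the pyruvate dehydrogenase complex were higher in rod TRAP, by unequal amounts. Dld encodes the E3 dihydrolipoamide dehydrogenase, a subunit shared with the oxoglutarate dehydrogenase complex and other keto acid dehydrogenases. The 3 control rod TRAP libraries gave 131.9, 132.0 and 131.5 TPM for Dld and the 3 Abca4-/- ones 146.2, 134.1 and 130.4. Against this stood 25.9, 32.6 and 15.1 in control retina and 38.6, 32.3 and 49.6 in Abca4-/- retina. The rod TRAP libraries sat in a narrow band and every one of them was above every retina library, with a difference of 2.80 ± 0.18, adjusted p = 2.33e-08 or 6.98-fold, the highest of the 38 fold changes. Within the complex Dlat, the E2 acetyltransferase core, came next. Levels of Dlat were 56.0, 57.3 and 57.5 TPM in rod TRAP of controls and 42.7, 41.5 and 50.7 in that of Abca4-/- mice. They were 30.5, 38.1 and 16.8 in control retina and 27.3, 32.8 and 40.1 in Abca4-/- retina. It was 2.26-fold higher in control (1.18 ± 0.13, adjusted p = 2.58e-06). The E1 subunits Pdha1 and Pdhb were both 0.67 higher (adjusted p = 0.00155 and 0.000139), calls that were lost with the authors' totals. On log2(TPM + 1) Pdhb kept its call, while Pdha1 did not pass (0.37, limma adjusted p = 0.121). Pdhb ranged from 145.3 to 165.4 TPM in the 6 rod TRAP libraries and 118.6 to 131.7 in the 6 retina libraries, whereas Pdha1 ranged from 44.5 to 53.6 TPM in the 6 rod TRAP libraries and 28.2 to 63.8 in the 6 retina libraries and overlapped.

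The pyruvate dehydrogenase kinases phosphorylate the E1 subunit and switch the complex off, and rods and retina differed in which kinase message prevailed. At the level of single libraries, Pdk2 measured 34.8, 36.9 and 39.9 TPM in control rod TRAP and 27.0, 36.6 and 35.4 in Abca4-/- rod TRAP. Retina measured 66.6, 86.7 and 90.2 in control and 49.3, 76.6 and 70.3 in Abca4-/-. Every rod TRAP library was below every retina library, with a difference of −0.80 ± 0.14, adjusted p = 0.000245. Pdk3 had 40.9, 37.6 and 42.4 TPM in control rod TRAP and 39, 40.6 and 39 in Abca4-/- rod TRAP. The retina values were 25.5, 26.5 and 23.1 in control and 26.0, 26.1 and 26.3 in Abca4-/-. Pdk3 went the other way, 0.98 ± 0.12, adjusted p = 1.21e-05, and again no library overlapped. Pdk2 made up 41.1% ± 2.1 in rod TRAP and 65.9% ± 5 in retina (SD, n = 6 each) of the Pdk total, and Pdk3 47.2% ± 3.9 in rod TRAP and 23.7% ± 4.4 in retina (SD, n = 6 each). In retina Pdk2 was thus the most abundant kinase message in 6 of 6 libraries, and in rods Pdk3 was in 6 of 6, closest in control replicate 2 at 37.6 against 36.9 TPM of Pdk2.

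Pdk1, the kinase known as a target of the hypoxia pathway, was a minor isoform in both fractions. Rod TRAP of control mice held 12.0, 11.6 and 11.9 TPM of Pdk1, and that of Abca4-/- mice 5.4, 7.9 and 11.6. Whole retina held 12.2, 14.6 and 8.1 in control and 6.1, 10.8 and 16.2 in Abca4-/-. Its fold change of 0.49 ± 0.16, adjusted p = 0.0166 turned to −0.13 with the authors' totals, and its share of 11.7% ± 2.6 in rod TRAP and 10.2% ± 2.9 in retina (SD, n = 6 each) did not pass the exact permutation test (p = 0.31). Pdk4, the isoform known to rise on fasting, was listed at 0 in 6 of 6 rod TRAP libraries. Retina held 7, 12 and 8 scaled counts of it (control) and 11, 6 and 10 (Abca4-/-), or 0.1 to 0.7 TPM, and no fold change is given.

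Pyruvate carboxylase (Pcx), which makes oxaloacetate from pyruvate and refills the cycle, was low in rods. The 3 control rod TRAP libraries gave 3.5, 3.9 and 3.4 TPM for Pcx and the 3 Abca4-/- ones 2.8, 3.4 and 3.6. Against this stood 11.4, 15.5 and 16.2 in control retina and 6.4, 13.8 and 13.5 in Abca4-/- retina. It was 3.1-fold lower in control (−1.63 ± 0.16, adjusted p = 1.36e-06), with no overlap. The lowest retina value, 6.4 TPM, came from the Abca4-/- replicate 1 library that also had the lowest Müller glia sum, and the part of that in the value was not tested.

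**Figure D2:**
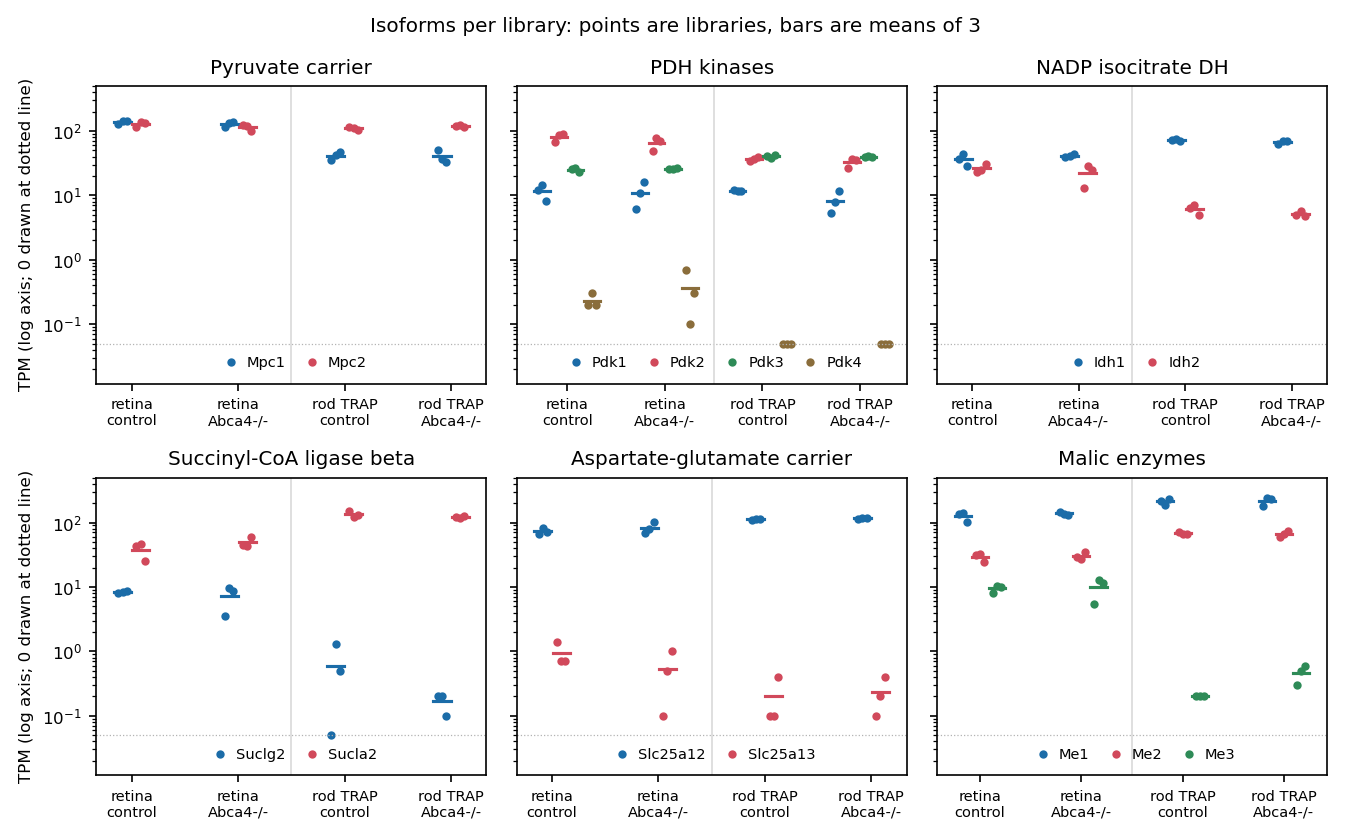
TPM of the members of the isoform families in each of the 12 libraries (points, log axis, with 0 drawn at the dotted line; short bars are means of 3), by fraction and genotype. In rod TRAP Suclg2 (0.0 to 1.3 TPM), Me3 (0.2 to 0.6) and Slc25a13 (0.1 to 0.4) sit near the bottom while Sucla2 (119.0 to 151.5), Me1 (181.9 to 239.9) and Slc25a12 (108.7 to 118.1) stay high.

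Succinyl-CoA ligase, the step of the cycle that makes a nucleoside triphosphate directly, differed in the shares of its beta subunit messages. Sucla2 was above Suclg2 in both fractions. Its common alpha subunit is Suclg1, and the beta subunit is either Sucla2, which works with ADP, or Suclg2, which works with GDP. Levels of Suclg1 were 115.1, 107.1 and 100.8 TPM in rod TRAP of controls and 101.0, 89.2 and 100.1 in that of Abca4-/- mice. They were 99.4, 108.7 and 112.1 in control retina and 77.6, 101.4 and 94.0 in Abca4-/- retina. The alpha subunit overlapped between the fractions in TPM, and its 0.31 in the fit (adjusted p = 0.0363) turned to −0.31 with the authors' totals. At the level of single libraries, Sucla2 measured 151.5, 123.3 and 130.8 TPM in control rod TRAP and 121.6, 119.0 and 124.9 in Abca4-/- rod TRAP. Retina measured 42.8, 46.3 and 25.1 in control and 44.5, 42.5 and 60.3 in Abca4-/-. Rod TRAP lay above retina in every library, 4.7-fold higher in control (2.23 ± 0.17, adjusted p = 1.08e-07). Suclg2 had 0, 4 and 12 scaled counts in control rod TRAP and 6, 1 and 2 in Abca4-/- rod TRAP. The retina values were 210, 184 and 209 in control and 93, 244 and 199 in Abca4-/-. At 0 to 12 scaled counts, Suclg2 was close to the limit of detection in rods, and a fitted fold change would depend on the 0.5 CPM added, so none is given here. The tables differ at such low levels, since control rod TRAP replicate 2 had 4 scaled counts and 1.3 TPM, and replicate 3 had 12 and 0.5. In TPM, Suclg2 made up 0.306% ± 0.38 in rod TRAP and 15.8% ± 6.1 in retina (SD, n = 6 each) of the 2 beta subunits. Its share was lowest among retina libraries in Abca4-/- replicate 1 (7.29%) and highest in control replicate 3 (25.5%).

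The promoters of this pair, and of the aspartate-glutamate carrier pair Slc25a12 and Slc25a13 described further on, are printed because in each pair the high and the low isoform of rods serve the same step. They are the 250 bases before the start in RefSeq (GRCm38.p6), read 5′ to 3′ on the strand of the gene, at chr14:73552536-73552785 (plus strand) for Sucla2, chr6:95718847-95719096 (minus strand) for Suclg2, chr2:71367756-71368005 (minus strand) for Slc25a12 and chr6:6217174-6217423 (minus strand) for Slc25a13. Capitals mark CG dinucleotides.
Sucla2: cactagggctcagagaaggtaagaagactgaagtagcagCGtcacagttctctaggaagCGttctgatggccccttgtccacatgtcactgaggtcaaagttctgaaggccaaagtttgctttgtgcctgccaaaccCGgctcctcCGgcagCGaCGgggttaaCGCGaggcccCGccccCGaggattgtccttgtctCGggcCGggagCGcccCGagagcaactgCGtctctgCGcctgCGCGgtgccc
Suclg2: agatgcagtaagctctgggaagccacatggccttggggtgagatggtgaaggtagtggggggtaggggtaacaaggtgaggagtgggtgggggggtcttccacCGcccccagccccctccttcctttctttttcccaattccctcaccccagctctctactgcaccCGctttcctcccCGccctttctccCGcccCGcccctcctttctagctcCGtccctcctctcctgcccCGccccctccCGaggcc
Slc25a12: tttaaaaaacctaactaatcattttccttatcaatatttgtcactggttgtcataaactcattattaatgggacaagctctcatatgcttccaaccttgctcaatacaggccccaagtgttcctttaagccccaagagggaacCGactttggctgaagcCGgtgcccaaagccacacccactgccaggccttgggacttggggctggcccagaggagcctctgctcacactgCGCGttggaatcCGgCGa
Slc25a13: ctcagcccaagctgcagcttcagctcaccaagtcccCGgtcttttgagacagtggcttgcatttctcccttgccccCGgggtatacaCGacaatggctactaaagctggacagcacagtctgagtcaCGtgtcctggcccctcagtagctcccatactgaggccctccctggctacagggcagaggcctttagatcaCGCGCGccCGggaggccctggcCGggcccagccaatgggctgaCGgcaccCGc
CG dinucleotides numbered 18 in Sucla2, 8 in Suclg2, 6 in Slc25a12 and 11 in Slc25a13, against a median of 6 (quartiles 2 and 16) in the 32851 windows of the reference. Of each pair, the isoform that was higher in rods had the more of them in Sucla2 and the fewer in Slc25a12. The letters AAGGTCA, the core bound by estrogen-related receptors, and TAATCC, the core bound by the photoreceptor factor CRX, were searched on both strands of the 300-base windows from 250 bases before to 50 after the start. Neither was in these 4. AAGGTCA was in 3 of the 36 members with a window (8.33%: Got1, Ogdh and Sdhd) and in 5.38% of all 27025 genes with a window. TAATCC was in 2 members (5.56%: Cs and Ogdh) and in 8.14% of these genes.

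Among the isocitrate dehydrogenases, the NAD-dependent Idh3 of the cycle is made of the Idh3a, Idh3b and Idh3g subunits, and NADP-dependent forms lie in the cytosol (Idh1) and in the mitochondrion (Idh2). Rod TRAP of control mice held 126.2, 119.7 and 122.6 TPM of Idh3a, and that of Abca4-/- mice 125.1, 121.7 and 116.3. Whole retina held 77.0, 89.8 and 62.3 in control and 79.9, 84.1 and 101.1 in Abca4-/-. Its catalytic subunit Idh3a was higher in rods (0.84 ± 0.12, adjusted p = 2.97e-05), with no overlap in TPM, but the call was lost with the authors' totals. The 3 control rod TRAP libraries gave 132.7, 130.6 and 125.8 TPM for Idh3b and the 3 Abca4-/- ones 132.6, 128.7 and 124.7. Against this stood 137.1, 158.7 and 162.0 in control retina and 131.0, 158.4 and 159.0 in Abca4-/- retina. Idh3b was thus above Idh3a in every library of both fractions, and in rods the 2 ranged from 124.7 to 132.7 and from 116.3 to 126.2 TPM. Levels of Idh3g were 97.8, 103.9 and 99.1 TPM in rod TRAP of controls and 106.5, 107.5 and 101.0 in that of Abca4-/- mice. They were 107.0, 128.4 and 138.0 in control retina and 89.6, 116.7 and 104.8 in Abca4-/- retina. The subunits Idh3b (−0.02 ± 0.12, adjusted p = 0.907) and Idh3g (0.02 ± 0.13, adjusted p = 0.918) did not pass, and both were called lower with the authors' totals.

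The NADP-dependent isoforms moved in opposite directions. At the level of single libraries, Idh1 measured 72.4, 76.0 and 69.7 TPM in control rod TRAP and 62.7, 70.4 and 69.7 in Abca4-/- rod TRAP. Retina measured 36.6, 43.9 and 28.2 in control and 40, 40.3 and 43.5 in Abca4-/-. Cytosolic Idh1 was 2.47-fold higher in rods (1.30 ± 0.13, adjusted p = 1.64e-06), with no overlap. Idh2 had 6.4, 7.0 and 4.9 TPM in control rod TRAP and 4.9, 5.7 and 4.8 in Abca4-/- rod TRAP. The retina values were 22.7, 25.2 and 30.8 in control and 13.0, 28.5 and 24.6 in Abca4-/-. Mitochondrial Idh2 was 3.3-fold lower (−1.72 ± 0.19, adjusted p = 3.72e-06), also with no overlap. Idh2 made up 7.38% ± 0.8 in rod TRAP and 38.2% ± 9 in retina (SD, n = 6 each) of Idh1 and Idh2 together. Over all 5 genes, the Idh3 subunits made up 81.0% to 84.3% of the TPM in rods and 83.9% to 86.0% in retina, ranges that overlap, and Idh1 14.5% to 17.4% in rods and 6.69% to 11.3% in retina. Cytosolic aconitase Aco1, which turns into an iron-regulatory protein without its iron-sulfur cluster, was 0.48 ± 0.12, adjusted p = 0.00246, and −0.14 with the authors' totals.

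Of the other cycle enzymes, all but Sdha and Sdhb depended on the scaling or did not pass. Citrate synthase Cs was 0.42 ± 0.11, adjusted p = 0.00458, and Dlst, the E2 subunit of the oxoglutarate dehydrogenase complex, 0.36 ± 0.11, adjusted p = 0.0109, while its E1 subunit Ogdh did not pass (0.24 ± 0.12, adjusted p = 0.0839). With the authors' totals these became −0.21, −0.26 and −0.39. The 4 genes of succinate dehydrogenase, complex II of the respiratory chain, did not move together. The flavoprotein Sdha ranged from 306.7 to 362.9 TPM in the 6 rod TRAP libraries and 177.0 to 240.2 in the 6 retina libraries and was 2.09-fold higher (1.06 ± 0.11, adjusted p = 1.55e-06), and the iron-sulfur subunit Sdhb ranged from 72.9 to 78.8 TPM in the 6 rod TRAP libraries and 83.7 to 142.8 in the 6 retina libraries and was lower (−0.44 ± 0.13, adjusted p = 0.01). Both were apart in all libraries in TPM, but on the scale of the fit Sdhb overlapped in Abca4-/-. The membrane anchors Sdhc (0.10 ± 0.13, adjusted p = 0.515) and Sdhd (0.08 ± 0.12, adjusted p = 0.546) did not pass. Rod TRAP of control mice held 50.4, 54.0 and 57.5 TPM of Fh1, and that of Abca4-/- mice 51.8, 57.6 and 57.4. Whole retina held 52.8, 53.7 and 48.1 in control and 46.4, 55.8 and 59.0 in Abca4-/-. Fumarase, encoded by Fh1, overlapped in TPM, and its 0.45 (adjusted p = 0.00367) became −0.17 with the authors' totals.

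In the malate-aspartate shuttle, cytosolic and mitochondrial malate dehydrogenase (Mdh1, Mdh2) and aspartate aminotransferase (Got1, Got2) work with 2 carriers, the oxoglutarate carrier Slc25a11 and an aspartate-glutamate carrier. Mdh1 had the highest TPM of the 39 members in every library. The 3 control rod TRAP libraries gave 640.0, 735.4 and 672.4 TPM for Mdh1 and the 3 Abca4-/- ones 717.4, 663.6 and 662.9. Against this stood 595.2, 728.8 and 675.3 in control retina and 575.1, 657.5 and 642.9 in Abca4-/- retina. The fractions overlapped. Levels of Mdh2 were 481.2, 476.1 and 468.4 TPM in rod TRAP of controls and 505.0, 449.7 and 446.9 in that of Abca4-/- mice. They were 385.6, 420.8 and 458.4 in control retina and 371.2, 400.2 and 365.1 in Abca4-/- retina. Rod values of Mdh2 were the higher ones, with an overlap at the control retina replicate 3 library. At the level of single libraries, Got1 measured 372.6, 352.6 and 330.5 TPM in control rod TRAP and 433.8, 364.9 and 345.8 in Abca4-/- rod TRAP. Retina measured 283.4, 350.0 and 319.7 in control and 276.4, 293.2 and 276.4 in Abca4-/-. These overlapped too, with the highest value in the rod TRAP library Abca4-/- replicate 1. Got2 had 240.7, 267.8 and 259.1 TPM in control rod TRAP and 268.0, 250.1 and 262.3 in Abca4-/- rod TRAP. The retina values were 196.3, 238.4 and 244.3 in control and 181.3, 220.0 and 197.6 in Abca4-/-. In the fit the 4 genes were 0.29 (Mdh1), 0.48 (Mdh2), 0.45 (Got1) and 0.48 (Got2) higher, with adjusted p from 0.00269 to 0.0306, and −0.33, −0.15, −0.17 and −0.14 with the authors' totals. Slc25a11 did not pass (0.15 ± 0.13, adjusted p = 0.308).

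The aspartate-glutamate carriers Slc25a12 (aralar) and Slc25a13 (citrin) were unequal in both fractions. Rod TRAP of control mice held 108.7, 115.3 and 112.8 TPM of Slc25a12, and that of Abca4-/- mice 113.3, 118.1 and 117.1. Whole retina held 66.9, 83.0 and 72.1 in control and 68.6, 78.7 and 102.9 in Abca4-/-. Slc25a12 was 1.84-fold higher in rods (0.88 ± 0.11, adjusted p = 1.01e-05), with no overlap. The 3 control rod TRAP libraries gave 4, 3 and 9 scaled counts for Slc25a13 and the 3 Abca4-/- ones 4, 4 and 1. Against this stood 38, 23 and 18 in control retina and 5, 20 and 27 in Abca4-/- retina. Slc25a13 was near 0 in rods, and again no fold change is given. Slc25a12 made up 99.8% ± 0.13 in rod TRAP and 99.1% ± 0.63 in retina (SD, n = 6 each) of the pair. Glud1, which joins glutamate to the cycle by making oxoglutarate, did not pass (−0.02 ± 0.12, adjusted p = 0.877), but was called lower with the authors' totals (−0.64, adjusted p = 0.00111) and without control retina replicate 3 (−0.33, adjusted p = 0.00465). In Abca4-/- it did not pass either (−0.26 ± 0.14, adjusted p = 0.125) and was called lower under 5 alternatives, from −0.77 with the authors' totals to −0.39 with a filter of 50 scaled counts, −0.57 without retina replicate 1 among them.

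The malic enzymes, which turn malate into pyruvate, were led in both fractions by the cytosolic NADP-dependent Me1. Levels of Me1 were 214.7, 189.0 and 234.8 TPM in rod TRAP of controls and 181.9, 239.9 and 229.6 in that of Abca4-/- mice. They were 134.7, 139.7 and 102.5 in control retina and 145.5, 136.8 and 132.4 in Abca4-/- retina. Me1 was 2.16-fold higher in rods (1.11 ± 0.13, adjusted p = 6.11e-06), with no overlap. At the level of single libraries, Me2 measured 70.8, 66.7 and 65.6 TPM in control rod TRAP and 58.6, 65.4 and 73.5 in Abca4-/- rod TRAP. Retina measured 30.9, 32.9 and 24.4 in control and 29.0, 26.8 and 34.7 in Abca4-/-. The mitochondrial NAD-dependent Me2 was 2.84-fold higher (1.51 ± 0.12, adjusted p = 2.17e-07), also with no overlap. Me3 had 1, 1 and 3 scaled counts in control rod TRAP and 4, 4 and 11 in Abca4-/- rod TRAP. The retina values were 142, 143 and 156 in control and 95, 217 and 208 in Abca4-/-. The mitochondrial NADP-dependent Me3 was near 0 in rods, and no fold change is given for it, since a fitted value would depend on the constant added. In TPM, Me1 made up 76.1% ± 1.8 in rod TRAP and 76.9% ± 2.4 in retina (SD, n = 6 each) of the family, Me2 23.8% ± 1.8 in rod TRAP and 17.4% ± 1.5 in retina (SD, n = 6 each) and Me3 0.117% ± 0.055 in rod TRAP and 5.7% ± 1.6 in retina (SD, n = 6 each). The share of Me1 differed by −0.786 points (exact permutation p = 0.53), that of Me2 by 6.37 and that of Me3 by −5.59.

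**Figure D3:**
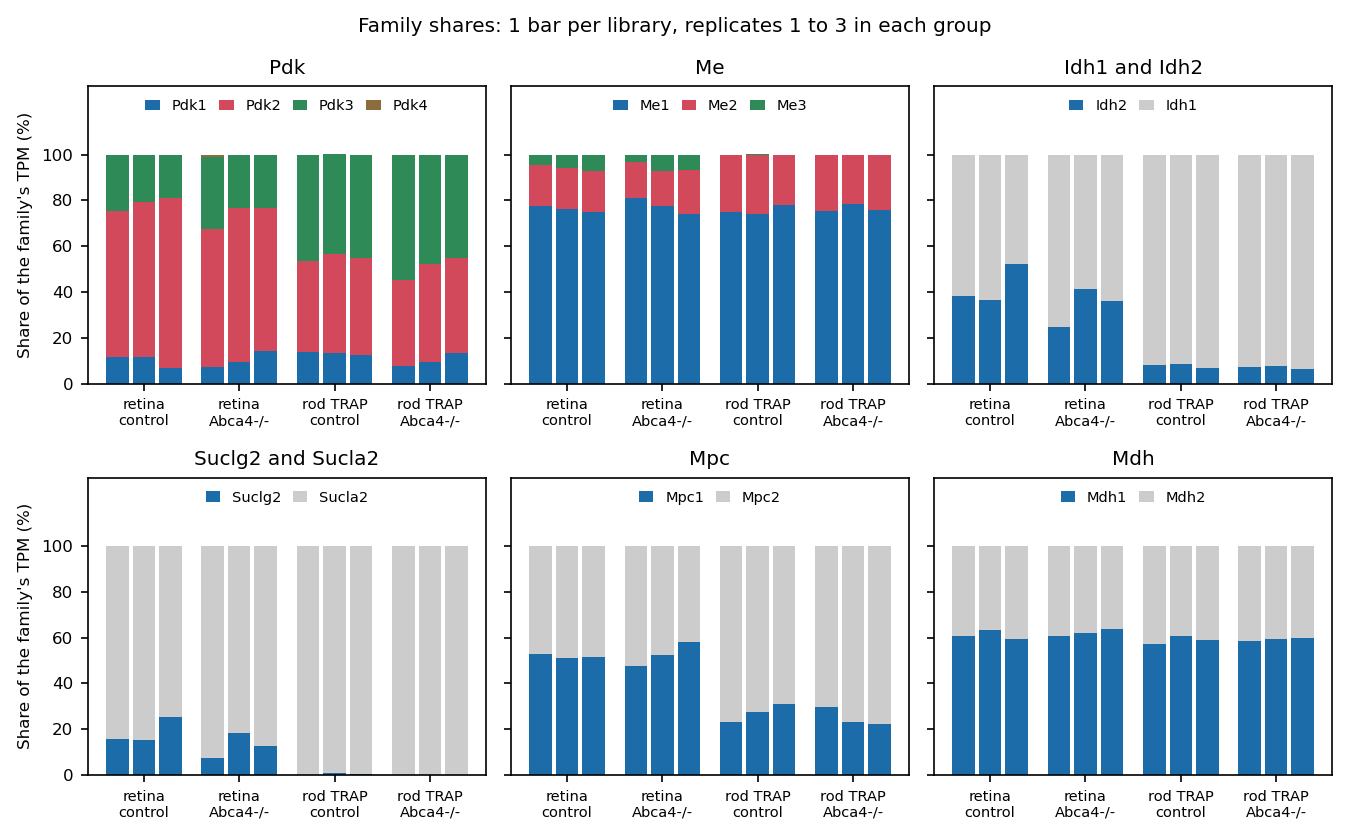
Share of each isoform in the TPM of its family, in percent, as 1 stacked bar for each of the 12 libraries, grouped by fraction and genotype. By mean of 6 libraries, Idh2 takes 38.2% of the NADP-dependent pair in retina and 7.38% in rod TRAP, Mpc1 52.4% and 26.3% of its pair, and Pdk2 65.9% and 41.1% of the kinases.

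Shares do not depend on how libraries are scaled to each other, so they were tested on their own. Of 13 shares, an exact permutation test within genotype (400 arrangements, two-sided, n = 6 per fraction) gave p = 0.005 for Mpc1, Pdk2, Pdk3, Idh2 and Me2. This is the smallest p these arrangements can give. The same p was reached by Pdk4, at 0 in every rod TRAP library, and by Suclg2 and Me3, near 0 in each. Such low levels fixed the outcome, so these genes are not counted with the others. The adjusted p was 0.00813, in an adjustment over all 13 shares that still includes them. Fraction labels were rearranged without the pairing of same-numbered libraries, although these deviated together, so the p does not take the pairing into account. The points of difference were −26.1 for Mpc1, −24.7 for Pdk2, 23.5 for Pdk3, −30.8 for Idh2 and 6.37 for Me2. For Suclg2 and Me3 they were −15.5 and −5.59. Slc25a12 differed by 0.743 points (adjusted p = 0.0217), but its share only mirrors that of Slc25a13, at 0.1 to 0.4 TPM in rods. Nothing is read from it. Mdh1 lost 2.6 points against Mdh2, from 61.7% to 59.1% (adjusted p = 0.026). Without control rod TRAP replicate 1 the differences of Slc25a12 and Mdh1 were 0.722 (adjusted p = 0.0506) and −2.15 points (adjusted p = 0.0715). Without control retina replicate 2 the Mdh1 share moved by −2.06 (adjusted p = 0.0585), and without the libraries labelled Abca4-/- replicate 3 by −2.31 (adjusted p = 0.065). The shares of Pdk1 and Me1 did not pass, nor did that of Got1 against Got2, at 58.6% in rods and 58.5% in retina (exact permutation p = 0.93). Shares of 1 family sum to the whole and are not independent of each other.

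Summed by role, in TPM, the pyruvate dehydrogenase subunits reached 373.4 to 405.7 in rod TRAP and 183.8 to 274.4 in retina, and the malic enzymes 240.8 to 305.8 and 136.8 to 183.1. The pyruvate carrier summed to 148.3 to 172.0 in rod TRAP and 239.3 to 280.3 in retina. In these 3 roles no library overlapped. The kinases (71.4 to 94.2 and 82.1 to 128.1), the cycle enzymes (1578.4 to 1741.6 and 1235.8 to 1661.5) and the shuttle (1970.9 to 2163.0 and 1591.2 to 1975.2) did overlap. All 39 members together took 4653.0 to 4835.6 TPM in rod TRAP and 3661.3 to 4648.6 in retina, with the retina minimum in Abca4-/- replicate 1.

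A list of 30 other genes of the pathway, chosen by function, was read beside the members. Of 28 tested in control, 11 were higher and 10 lower in rod TRAP, with a median of 0.17. Of the other pyruvate dehydrogenase genes, Pdhx, which anchors the E3 subunit, was 1.31, the phosphatase genes Pdp1, Pdp2 and Pdpr, which reverse the kinases, were 1.05, 1.44 and 1.47, and the lipoate synthase Lias was 0.74, all called higher. The citrate-cleaving Acly was 0.78. Lower were the citrate carrier Slc25a1 (−4.53), glutamine synthetase Glul, a Müller glia enzyme (−4.26), the glycerol phosphate shuttle gene Gpd1 (−2.43), and the alanine aminotransferases Gpt (−0.89) and Gpt2 (−0.84). The shift of the median of all genes with the authors' totals applies to these values too.

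Among Abca4-/- libraries, rod TRAP differed from retina in the same direction for most of these genes. Of 37 members tested, 18 were higher and 6 lower, and of all 16036 genes 63.8% were called, 29.4% higher and 34.3% lower. Of the 22 members higher in control, 18 were higher here too, which are all 18, and of the 8 lower, 6 were, which are all 6. Log2 fold changes were 1.97 for Dld, 1.54 for Sucla2, 1.30 for Me2 and 0.94 for Idh1, and −1.69 for Idh2, −1.44 for Pcx and −1.32 for Mpc1. Suclg2 and Me3, also among the 6 lower, were near 0 in rods, and Suclg2 met the filter through retina alone, so their calls are no support. Pdk1 (−0.07 ± 0.25, adjusted p = 0.83), Sdhb (−0.27 ± 0.16, adjusted p = 0.158), Pdha1, Suclg1 and Mdh1 did not pass here, and Slc25a13 was too low to be tested. Libraries of the 2 fractions with the same number deviated together, and a fit with this pairing as a block called Pdha1 (0.34, adjusted p = 0.0282), Suclg1 (0.31, adjusted p = 0.04) and Mdh1 (0.37, adjusted p = 0.0275) higher, for 21 in all. Without the libraries labelled Abca4-/- replicate 3 in both fractions, 7 higher members (Dlat, Dld, Sucla2, Sdha, Slc25a12, Me2 and Idh1) and 4 lower (Mpc1, Pdk2, Pcx and Idh2) kept their call, while Suclg2 and Me3 were then too low to be tested. That fit called 2667 of all 13150 genes higher and 2899 lower. Leaving out rod TRAP replicate 1 left 11 members higher, beside 4490 of 15936 genes. Leaving out retina replicate 2 or 3 left 10 in each case, beside 2958 of 13396 and 3448 of 13405 genes. With the authors' totals 6 members were higher and 10 lower, beside 2282 and 7814 of 16036 genes.

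Between genotypes, no member passed the test in rod TRAP. Of 35 members tested none was called (limma adjusted p under 0.05) and 1 had an unadjusted p under 0.05. Of all 13104 genes 1.12% were called and 1368 had an unadjusted p under 0.05. Pdk4, Suclg2, Slc25a13 and Me3 were too low in rods to be tested. On the scale of the fit no tested member had groups that did not overlap, against 17.5% of all genes. In TPM Pdhb and Dlat were apart, lower in Abca4-/-. The share of all genes apart in TPM was not computed, so nothing is read from this. The median log2 fold change of Abca4-/- over control was 0.02 over the members and 0.00 over all genes. The smallest p was that of Pdk1, at −0.44 ± 0.18, adjusted p = 0.403. Its scaled counts were 540, 504 and 491 for controls against 267, 362 and 527 for Abca4-/-, where the highest value is that of the library labelled Abca4-/- replicate 3. Without that library Pdk1 was −0.67 ± 0.13 with an adjusted p = 0.035, the only member called, beside 120 of 12943 genes. Over the alternatives the fold change of Pdk1 ran from −0.67 to −0.25 and its adjusted p from 0.035 to 0.786. Retina held 650, 706 and 435 for controls against 394, 615 and 797, with overlap (adjusted p = 0.996). The next smallest p were those of Dlat (−0.13 ± 0.09, adjusted p = 0.669) and Fh1 (0.14 ± 0.10, adjusted p = 0.69).

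**Figure D4:**
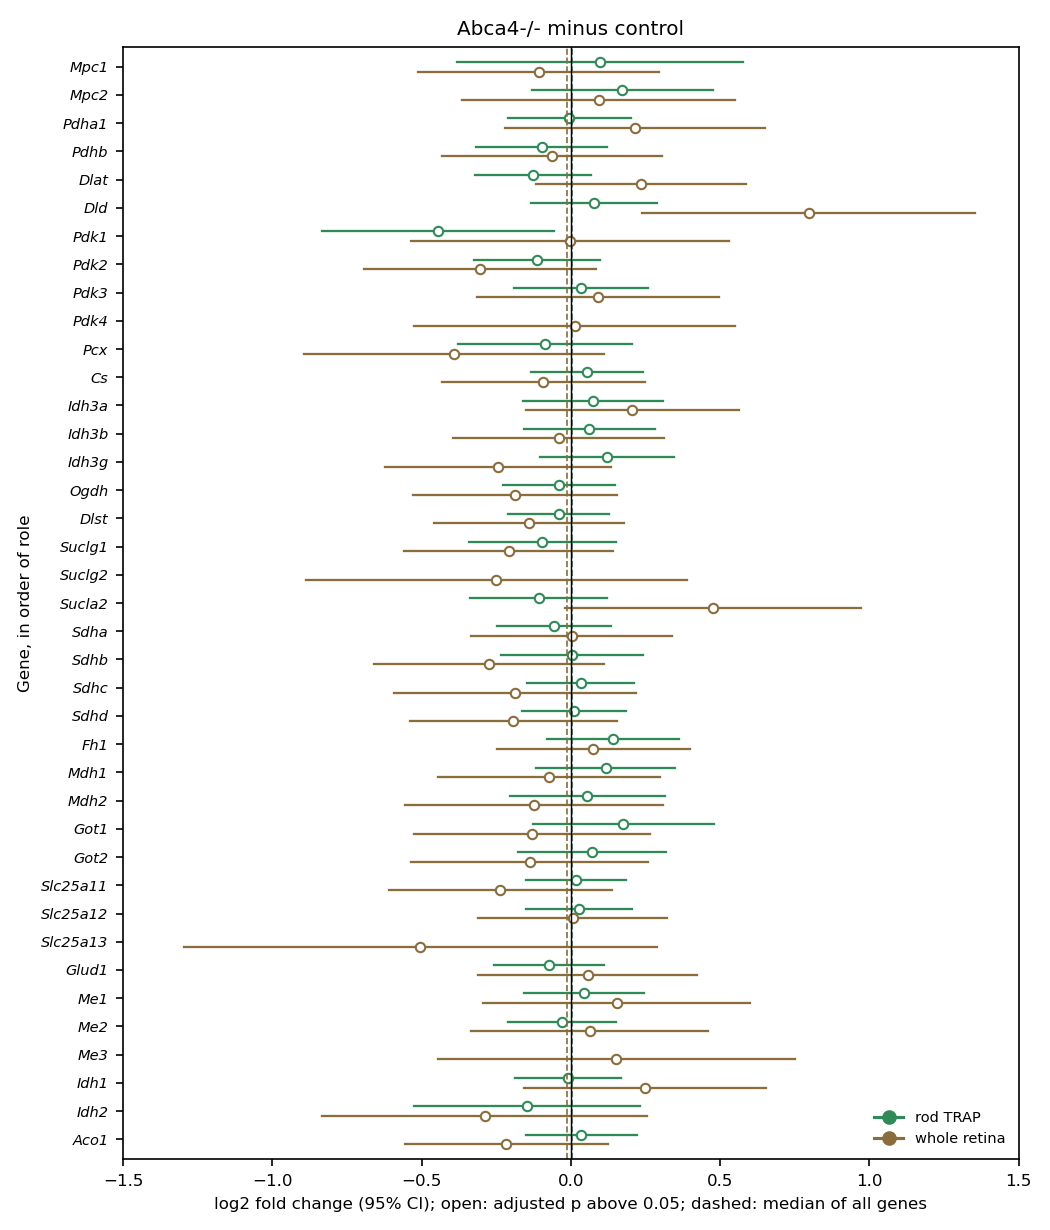
Log2 fold change of Abca4-/- over control for each tested member (points; lines are 95% confidence intervals from limma), in rod TRAP and in whole retina, with dashed lines at the medians of all genes. All points are open, since no member reached an adjusted p under 0.05, and Pdk1 in rod TRAP (−0.44) and Dld in retina (0.80) have the smallest p of each comparison.

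In retina, all 39 members were tested, none was called and 1 had an unadjusted p under 0.05. Of all 16964 genes 0.112% were called and 2023 had an unadjusted p under 0.05. On the scale of the fit the groups did not overlap for 4 members, Dlat and Dld higher and Dlst and Aco1 lower in Abca4-/-, against 19.7% of all genes (10.6% higher and 9.18% lower). In TPM these 4 overlapped, and Sdhd and Slc25a11 were apart, lower in Abca4-/-. Here too no share of all genes in TPM stands beside them, and nothing is read from it. Dld was 0.80 ± 0.25, adjusted p = 0.406, with 726, 808 and 439 scaled counts for controls against 1191, 877 and 1281 for Abca4-/-, and ran from 0.55 to 0.98 over the alternatives, with an adjusted p of 0.0847 to 0.938. Sucla2 was 0.48 ± 0.22, adjusted p = 0.423, from 797, 795 and 494 in control and 959, 792 and 1093 in Abca4-/-, and Pdk2 −0.30 ± 0.17, adjusted p = 0.468. For Dld and Sucla2 the lowest value came from control retina replicate 3, without which they were 0.55 (adjusted p = 0.938) and 0.27 (adjusted p = 0.938). In TPM that library was also the lowest of the 6 retina libraries for Pdha1 (28.2), Dlat (16.8), Idh3a (62.3), Me1 (102.5), Me2 (24.4) and Idh1 (28.2), 6 members that were higher in rod TRAP, although its rod marker sum, 123730 TPM, was the highest of the 6. The other retina library that stood apart was Abca4-/- replicate 1, which had the lowest Suclg2 (3.5), Me3 (5.4), Idh2 (13.0) and Pcx (6.4 TPM) beside the lowest Müller glia and bipolar sums. The part of these sums in the values was not tested.

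**Figure D5:**
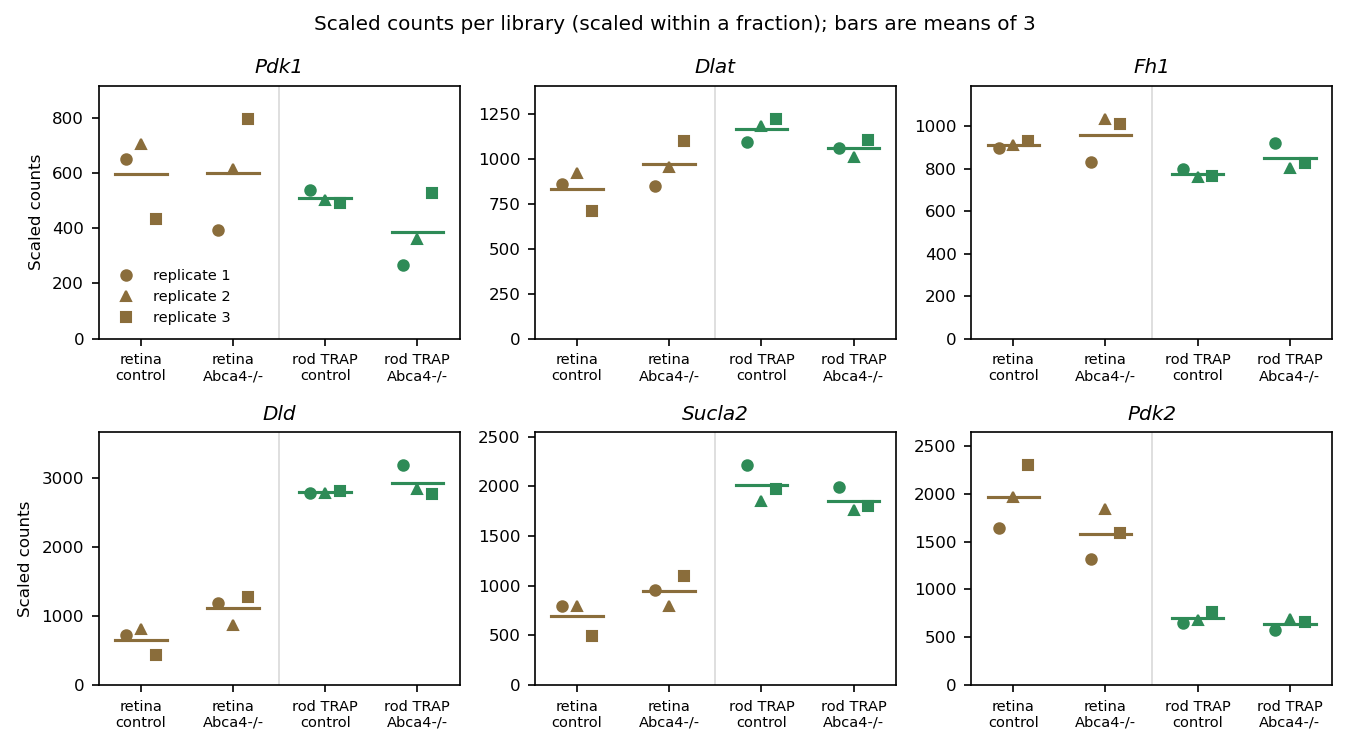
Scaled counts per library (points, with the replicate number given by the symbol; bars are means of 3) for the 3 members with the smallest p between genotypes in rod TRAP (Pdk1, Dlat, Fh1) and in retina (Dld, Sucla2, Pdk2). Scaled counts share 1 total within a fraction only, so genotypes can be compared in a panel and fractions cannot. In rod TRAP the Abca4-/- points of Pdk1 reach from 267 to 527 and overlap the controls, at 491 to 540.

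Whether the genotype difference itself depended on the fraction was asked with the interaction over all 12 libraries. None of the 39 members was called, beside 0.00579% of 17273 genes. An unadjusted p under 0.05 was found for 3 members and for 1947 of all 17273 genes, so these 3 do not set the members apart. The 3 were Dld (−0.73 ± 0.28, adjusted p = 0.415), Sucla2 (−0.59 ± 0.25, adjusted p = 0.426) and Dlat (−0.37 ± 0.17, adjusted p = 0.438), in each of which the excess of rod TRAP over retina was the smaller one in Abca4-/-. Without control retina replicate 3 they were −0.48, −0.38 and −0.28, and without the libraries labelled Abca4-/- replicate 3 −0.64, −0.53 and −0.37. The 95% confidence intervals of the genotype difference in rod TRAP ran from −0.13 to 0.29 for Dld and from −0.34 to 0.12 for Sucla2, and in retina from 0.24 to 1.35 and from −0.02 to 0.97.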

How the data were processed

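Retinas were perfused with cycloheximide and frozen, and cDNA was made with a low-input SMARTer kit from 5 ng of lysate RNA or 10 ng of TRAP RNA. The submitters' processing notes list CASAVA 1.8.2, HISAT2, GRCm39, edgeR and DESeq2. The authors deposited 2 tables with 1 column per library. The first holds a score, here named scaled count, which the authors made by multiplying read counts by 1 factor per library, so that totals are 17096515 to 17097707 in rod TRAP and 17860761 to 17862326 in retina, and rounding. The factors were recovered from gaps and doubled values among low scores, with a largest error of 0.0417% in 6 simulated libraries, although a factor close to 1 leaves few of them. The second deposited table holds TPM, to 1 decimal, and served for levels and shares per length.

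Since the scores are not raw counts, limma 3.58.1 (trend, robust, R 4.3.3) was run on log2(CPM + 0.5) after scaling by the trimmed mean of M (trims 0.3 and 0.05). Genes with at least 10 scaled counts in at least 3 libraries were tested, two-sided, and p-values were Benjamini-Hochberg adjusted over all genes tested. The fits were checked on simulated data. Fold changes on this scale understate those of genes near 0. Fractions were compared within genotype and genotypes within fraction, from 6 libraries each, and the interaction from 12. Rod TRAP and retina libraries with the same number deviated together in 6 of 6 pairs (r 0.16 to 0.434 over 17273 genes), so a fit with this pairing as a block was run beside each. In Abca4-/-, however, rod TRAP replicate 2 correlated slightly more with retina replicate 3 (0.229) than with retina replicate 2 (0.207). Shares of family TPM were compared by exact permutation, with adjustment over 13 shares, and this permutation did not use the pairing. Python 3.11.15, numpy 2.4.6, scipy 1.17.1, pandas 2.3.3 and matplotlib 3.10.9 served the other steps.

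All 39 members were named, with values per library for isoform families, for the 5 highest and 5 lowest fold changes between fractions, and for the 3 smallest p between genotypes. The members, lists and tests were chosen with earlier results of these data known. Labels do not state whether libraries of a group came from separate animals, nor sex or batch, so p-values measure the spread between these libraries. How reads shared between similar genes or overlapping genes were counted is not given in the sources used here.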

Additional observations from a re-analysis of the deposited data

How the results depend on the processing

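The 3 libraries in a group limit the genotype comparisons, and members near 0 in rods (Suclg2, Me3, Slc25a13, Pdk4) have fold changes set by the constant added. Between genotypes and in the interaction, member calls stayed at 0 under every alternative run except that 1 member, Pdk1, was called lower in rod TRAP without Abca4-/- replicate 3. That fit called 120 of 12943 genes. Between fractions the scaling mattered most. With the authors' totals, control calls were 9 higher and 19 lower with a median of −0.24, and Abca4-/- calls 6 higher and 10 lower with a median of −0.16. Over all genes they were 3415 and 9549 of 16286 in control and 2282 and 7814 of 16036 in Abca4-/-. On log2(TPM + 1), 11 members were higher in control, with a median of 0.05, and the Abca4-/- median was 0.08. On log2(TPM + 0.1), 11 were higher in control. Of all 15948 genes, 3941 and 3877 were higher in control on these 2 scales. Leaving out each library in turn gave 12 to 20 higher members in control with medians of 0.18 to 0.42, and 10 to 15 in Abca4-/- with medians of 0.16 to 0.41. Over all genes these fits called 4678 to 5430 higher in control and 2958 to 4490 in Abca4-/-. Leaving out both libraries labelled Abca4-/- replicate 3 gave 7 members, beside 2667 of 13150 genes. Signs that turned with the authors' totals were, in control, Mpc2 (−0.47), Pdk1 (−0.13), Cs (−0.21), Idh3g (−0.61), Ogdh (−0.39), Dlst (−0.26), Suclg1 (−0.31), Sdhc (−0.53), Sdhd (−0.54), Fh1 (−0.17), Mdh1 (−0.33), Mdh2 (−0.15), Got1 (−0.17), Got2 (−0.14), Slc25a11 (−0.48) and Aco1 (−0.14), and in Abca4-/- Cs (−0.06), Dlst (−0.16), Sdhd (−0.33) and Fh1 (−0.10) and, with no call either way, Mpc2 (−0.38), Pdha1 (−0.17), Idh3g (−0.24), Ogdh (−0.24), Suclg1 (−0.19), Sdhc (−0.30), Mdh1 (−0.14) and Slc25a11 (−0.22). Idh3g was also −0.30 on both TPM scales. These values moved with the median of all genes, which lay at −0.62 in control under the authors' totals. Among the shares, leaving out 1 library lost calls of Slc25a12 (range 0.551 to 0.854 points), Mdh1 (−3.05 to −2.06) and Pdk4 (−0.378 to −0.187), and leaving out both libraries labelled Abca4-/- replicate 3 lost that of Mdh1 (−2.31). The pairing of fractions as a replicate block changed no member call in control (22 higher, 8 lower). In Abca4-/- it gave 21 higher, beside 5382 of 16036 genes. Genotypes were not paired, since same-numbered libraries correlated at −0.391 to 0.0175, and a block changed no member call there.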
